A study of Mus musculus with 14 samples.

Results

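The genes described here carry bile acids through the ileal enterocyte and report them to the liver: the bile acid receptor FXR (Nr1h4), its partner repressor SHP (Nr0b2), the hormone gene Fgf15, the carriers Slc10a2, Fabp6, Slc51a and Slc51b, the Fgf15 modifier Diet1, and Gata4, which keeps this program out of the proximal intestine. Members were taken as the rows of the count table that bear these gene names. Of the 54532 rows of the table, 9 were members. The table has no row named Diet1, which it lists as Malrd1 (RefSeq gives Diet1 as a synonym of Malrd1), so 8 members were matched by name and 1 by synonym. RNA of the ileum mucosa of 7 WT and 7 IKO mice was sequenced, with 1 library per mouse. All were male, matched in age, and fed a high-fat diet (HFD) for 15 weeks. Both genotypes carry the floxed NCoR1 allele. The WT mice have no Cre, and the IKO mice also carry a Cre recombinase under the villin promoter, which deletes the corepressor NCoR1 in epithelial cells and not in the other cells of the mucosa.

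Bile acids that reach the ileum enter the enterocyte through the apical sodium-dependent carrier SLC10A2, are bound in the cytosol by FABP6, and leave across the basolateral membrane through OSTα-OSTβ, a carrier made of the products of Slc51a and Slc51b. Inside the cell they are ligands of FXR, which binds DNA with RXR, raises Fabp6, Slc51a, Slc51b and Nr0b2, and raises Fgf15, whose product travels to the liver and lowers bile acid synthesis. NCoR1 holds nuclear receptors in a repressed state when no ligand is bound, and the comparison asks whether its loss from the epithelium changed this axis under an HFD.

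The sequence through which FXR acts is best known as an inverted repeat of the hexamer AGGTCA spaced by 1 base, and the promoter of Fabp6 is the member whose window carried the clearest copies. RefSeq promoter windows of GRCm38.p6, which run from 250 bases before to 50 after a start site, were at hand for 6 of the 9 members, and not for Fgf15, Diet1 and Gata4. Searched with up to 2 mismatches, this repeat (AGGTCA, any base, TGACCT, the same on both strands) occurred in 1.14% of 32851 windows of all genes. Among members it occurred in Fabp6 only, in 2 copies that start 222 and 142 bases before the start. The 250 bases before that start lie upstream of the gene at chr11:43601563-43601812, minus strand. They are printed to show where both copies sit, with the copies in capitals.
Fabp6: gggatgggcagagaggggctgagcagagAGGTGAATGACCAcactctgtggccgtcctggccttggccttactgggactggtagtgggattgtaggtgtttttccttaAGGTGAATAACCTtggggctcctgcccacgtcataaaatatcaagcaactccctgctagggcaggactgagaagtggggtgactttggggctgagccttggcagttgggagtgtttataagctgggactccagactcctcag

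Both OSTα-OSTβ genes carried the repeat with 3 mismatches, a limit set after the windows were seen and met by 11.4% of all windows. It starts 187 bases before the RefSeq start of Slc51b, in chr9:65422940-65422968, which partly overlaps the first exon of the GENCODE vM21 annotation. It starts 79 bases before the start of Slc51a, upstream of the gene in chr16:32487938-32487966. The sites of both genes are given to compare their letters with those of Fabp6, with the match in capitals and both on the minus strand.
Slc51b: cattcgtgGGGTCATTCACCCtggactgg
Slc51a: accacgtgAGGACTTTGTCCTtctcttct

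The Nr1h4 window lies at a start inside the gene, and its match to the PPAR repeat falls in intron sequence. It held 1 match to the direct repeat that PPARα binds (AGGTCA, any base, AGGTCA, both strands searched), 221 bases before that start (up to 2 mismatches, 3.86% of windows). It also held the GATA letters AGATAA, which 11.2% of windows hold. The HNF1 letters (GTTAAT, any base, ATTAAC, up to 2 mismatches) were in 1.36% of windows. Among members they were in Nr1h4, 40 bases before that start, and in Slc10a2, 224 bases before its start. CAAGGTCA, the LRH-1 letters, was in 1.56% of windows and in none of the 6 of members. These are matches of letters, and binding was not measured.

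Library totals ran from 14749669 to 21557468 counts. IKO 4 and WT 3 had 50.3% and 23.9% of their counts on genes of the mitochondrial genome, against 3.49% to 10.3% in the other 12 libraries. WT 4 stood apart by smooth muscle markers, whose summed level reached 11502 CPM (counts scaled to a common library size) there against a WT median of 29.9, and fibroblast markers summed to 633 against 52.8. Among IKO mice, IKO 1 had the highest smooth muscle sum, 857 CPM against an IKO median of 17.3. All 8 enterocyte markers were tested and summed to between 13282 and 51743 CPM in each library, and plasma and B cell markers summed to between 232 and 910 CPM, so the samples were epithelium-rich mucosa and not epithelium alone. Ncor1 was 135 ± 31.3 CPM in WT and 50.6 ± 10.97 CPM in IKO mice (SD, n = 7 each), without overlap between genotypes. Across the 13846 genes with enough counts, edgeR called 1200 at a Benjamini-Hochberg adjusted p below 0.05. These were 607 higher (4.38% of the genes tested) and 593 lower (4.28%) in IKO mice, a split that became 708 and 328 with limma on log2(FPKM + 1). FPKM is the level per kilobase of gene, scaled for the library.

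None of the 9 members passed this test, where 8.67% of all genes tested did. All 9 had enough counts to be tested. At an unadjusted edgeR p below 0.05 there were 3 members, Fgf15, Nr1h4 and Diet1, against 30.4% of all genes. DESeq2, the tool the study used, called 1 member, Fgf15, where it called 16.5% of its genes. No member had genotypes that did not overlap, which 3.1% of the genes tested had. In these bulk samples, fewer cells of a type and less RNA per cell cannot be told apart. The direction was not shared: 6 members had a positive and 3 a negative log2 fold change of IKO over WT, with Gata4 among the latter at −0.00032, beside a median of −0.09 over all genes tested.

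**Figure D1:**
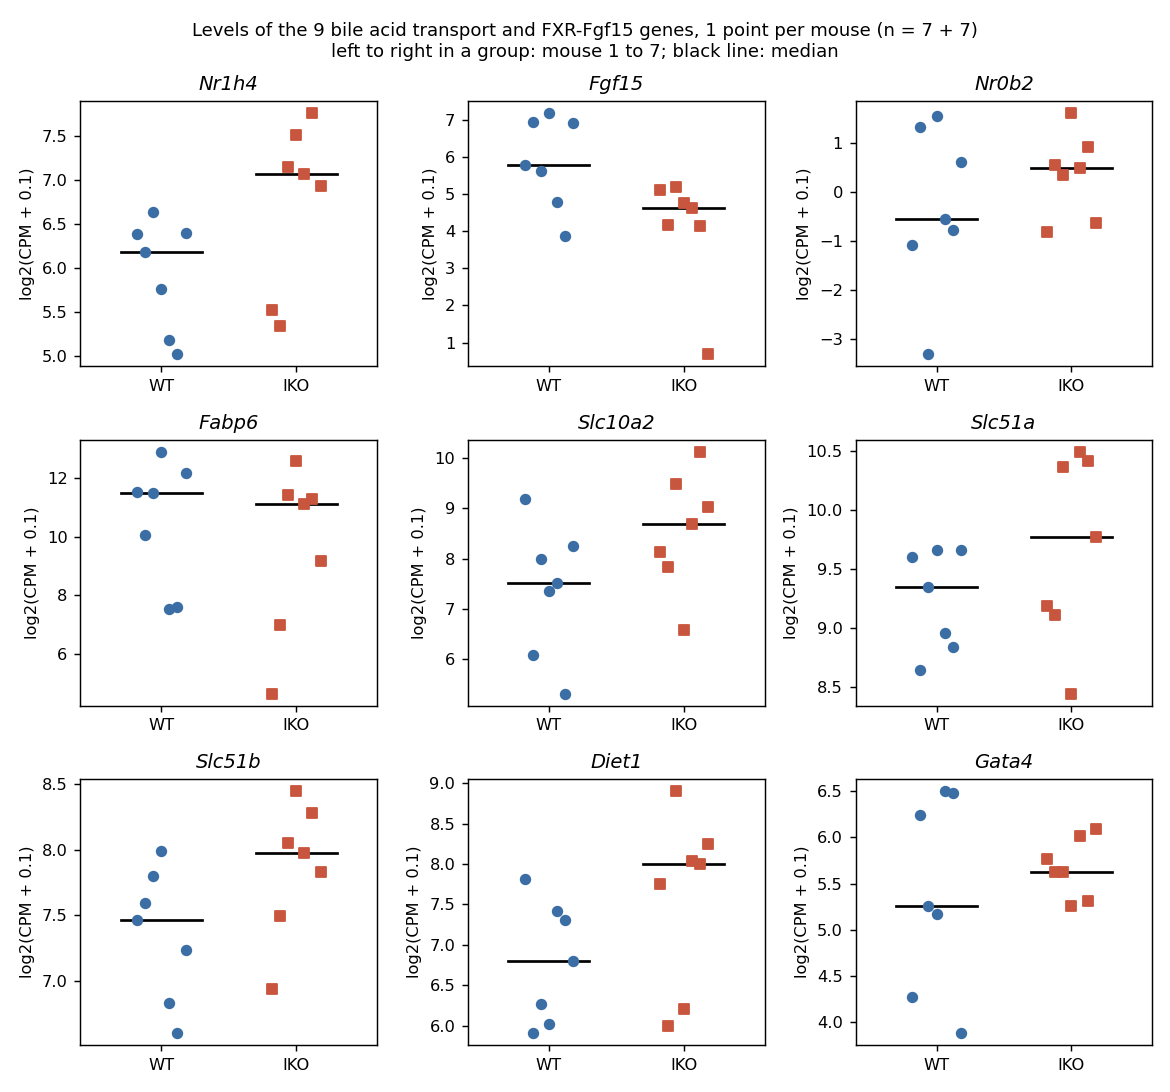
Level of each of the 9 genes as log2(CPM + 0.1) on the y axis, in WT (blue circles) and IKO mice (red squares), 1 point per mouse, with the black line at the median. The genotypes overlap in every panel, all 7 IKO mice lie below the WT median for Fgf15, and Fabp6 has the widest spread.

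Nr1h4 (ENSMUSG00000047638, chr10:89454234-89533585, minus strand), the receptor itself, was at 32.3 CPM in the lowest, 72.2 in the median and 99.0 in the highest WT mouse. In IKO mice it was at 40.5, 133 and 217 CPM. The 5 values of IKO 3 to IKO 7 were above every WT mouse, while IKO 1 and IKO 2 lay among the lower WT values. The log2 fold change was 0.93 ± 0.37 (SE), with a 95% confidence interval from 0.16 to 1.71, or 1.91-fold. It did not pass the test (edgeR, Benjamini-Hochberg adjusted p = 0.107), nor did the exact two-sided permutation test of the mean log2 CPM (p = 0.0828).

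Fgf15 (ENSMUSG00000031073, chr7:144896531-144900953, plus strand), the hormone gene at the end of the axis, lay on the other side of 0. Its level was 14.4 CPM in the lowest, 54.5 in the median and 145 in the highest WT mouse. In IKO mice it was 1.51, 24.4 and 36.5 CPM. All 7 IKO mice were below the WT median, but 6 of them lay within the WT range, which WT 6 (14.4 CPM) and WT 5 (27.4 CPM) extended downward. The lone IKO value below that range was that of IKO 7, where 25 counts were found. The log2 fold change was −1.75 ± 0.56 (95% confidence interval −2.94 to −0.55), a level 0.298 times that of WT. It did not pass the edgeR test (Benjamini-Hochberg adjusted p = 0.0616). DESeq2 gave −1.71 with an adjusted p of 0.0170, and the exact permutation test of this single gene, 1 of 9 such tests, gave p = 0.0262 without adjustment. By RT-qPCR, another assay with more mice per group, the study reported no Fgf15 difference between WT and IKO mice in any part of the intestine. It also reported no change of other FXR targets in the liver. The edgeR value of Fgf15 was −1.53 without IKO 7 (adjusted p = 0.0598) and −1.51 without WT 4 (adjusted p = 0.109). Without WT 6 it was −1.92 and passed (edgeR, adjusted p = 0.0399).

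The ratio of hormone gene to receptor was 1 of 5 ratios set for comparison with earlier results of these data known, so it restates both fold changes and is no independent support of them. The log2 ratio of Fgf15 over Nr1h4, which does not depend on how a library is scaled, ran from −1.16 through a median of −0.40 to 1.42 in WT mice. In IKO mice it ran from −6.24 through −2.45 to −0.42. It was below every WT value in 6 of 7 IKO mice, and IKO 1 (−0.42) lay close to the WT median. The difference of the means was −2.59 on the log2 scale, with an exact two-sided permutation p of 0.00408 and an adjusted p of 0.0204 over the 5 ratios tested. Leaving out each mouse in turn gave values from −2.96 to −1.99 (exact permutation p from 0.000583, the smallest that divisions into 7 and 6 can give, to 0.00932). Without IKO 1 it was −2.96, without IKO 7 it was −1.99, and without the muscle-marked WT 4 it was −2.34. Against Fabp6, another FXR target, the log2 ratio of Fgf15 differed by −0.90 and did not pass (exact permutation p = 0.516, adjusted p = 0.645). The log2 ratio of Slc10a2 over Gata4 differed by 0.90 and did not pass either (exact permutation p = 0.365, adjusted p = 0.609).

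**Figure D2:**
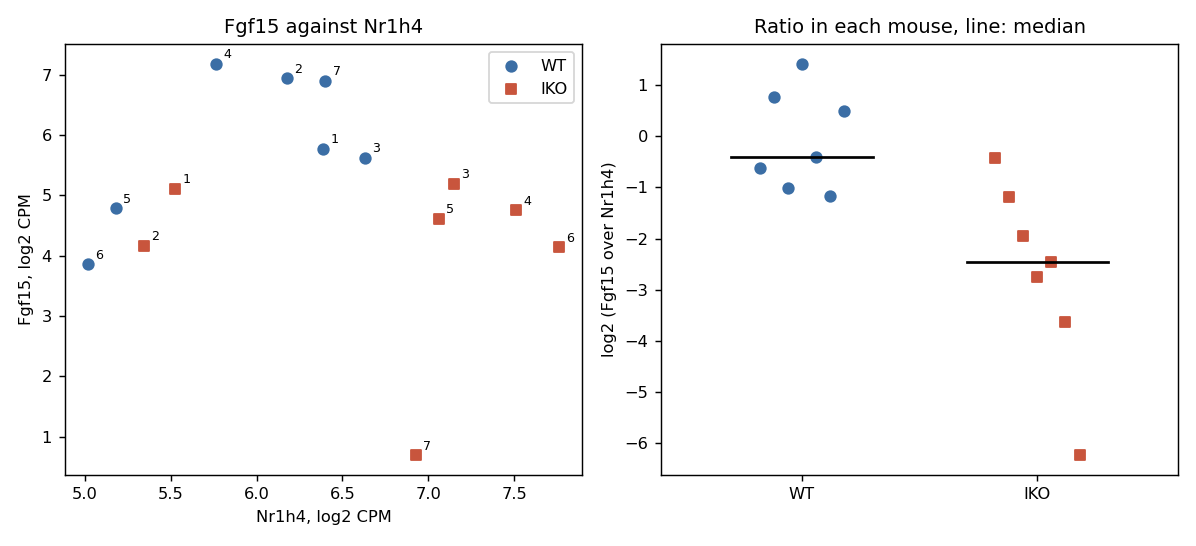
Left, Fgf15 (y axis) against Nr1h4 (x axis), both as log2 CPM, with the mouse number beside each point. Right, log2 of Fgf15 over Nr1h4 in each mouse with the median as a line, where 6 of 7 IKO mice (red squares) lie below the lowest WT mouse (blue circles, −1.16).

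Nr0b2 (ENSMUSG00000037583, chr4:133553376-133556536, plus strand), the FXR target that encodes SHP, was barely detected. It had from 0 to 59 counts per library and 166 in the 7 WT libraries together. WT mice had 0, 0.576 and 2.80 CPM as lowest, median and highest value, and IKO mice 0.468, 1.29 and 2.95 CPM. The count of 0 in WT 3 allows up to 0.204 CPM, taking 3 counts as the limit and covering counting error only. The log2 fold change of 0.23 ± 0.66 (edgeR, Benjamini-Hochberg adjusted p = 0.840) has an interval from −1.17 to 1.62 and so takes in changes of either sign.

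Slc10a2 (ENSMUSG00000023073, chr8:5083219-5105351, minus strand), the way in, was at 39.7, 184 and 579 CPM in the lowest, median and highest WT mouse and at 96.0, 410 and 1112 CPM in IKO mice. Of the IKO mice, 6 were above the WT median and 2 above all WT mice. The lowest IKO value was that of IKO 4, the library with the highest mitochondrial share. The log2 fold change was 1.08 ± 0.56 (95% confidence interval −0.11 to 2.27), which did not pass (edgeR, Benjamini-Hochberg adjusted p = 0.203).

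Fabp6 (ENSMUSG00000020405, chr11:43596049-43601540, minus strand), the cytosolic carrier with the repeats printed above, was the least even of the members. It was at 186, 2930 and 7661 CPM in WT mice and at 24.7, 2215 and 6143 CPM in IKO mice. The highest value was 41.1 times the lowest among WT and 249 times among IKO mice. The low libraries came from both genotypes: WT 5 (186 CPM), WT 6 (192 CPM), IKO 1 (24.7 CPM) and IKO 2 (127 CPM). The SD on the log2 scale was 2.17 in WT and 2.86 in IKO mice, above that of 98.7% and 99.9% of the genes tested. With this spread the log2 fold change of −0.46 ± 0.94 had an interval from −2.46 to 1.55 (edgeR, Benjamini-Hochberg adjusted p = 0.772). Without WT 4, which had both the highest WT Fabp6 level and the smooth muscle markers, it was 0.03. Without IKO 1, which had the lowest Fabp6 level and the highest smooth muscle markers of its genotype, it was −0.23. The part of these markers in the Fabp6 levels was not tested.

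Slc51a (ENSMUSG00000035699, chr16:32474504-32487879, minus strand) was at 400, 651 and 810 CPM in the lowest, median and highest WT mouse and at 349, 873 and 1441 CPM in IKO mice. Its partner Slc51b (ENSMUSG00000053862, chr9:65412714-65422955, minus strand) was at 97.0, 176 and 254 CPM in WT and at 123, 251 and 348 CPM in IKO mice. Of the IKO mice, 4 were above all WT mice for Slc51a and 3 for Slc51b. The log2 fold changes of 0.56 ± 0.31 and 0.50 ± 0.25 were alike in size, and neither passed (edgeR, Benjamini-Hochberg adjusted p = 0.238 and 0.196). Their intervals, −0.11 to 1.22 and −0.04 to 1.04, allow a level up to 2.34-fold and 2.05-fold that of WT. The log2 ratio of Slc51b over Slc51a differed by 0.06 between genotypes (exact permutation p = 0.889). It was near −2 in most mice, with medians of −2.13 in WT and −2.14 in IKO mice, and reached −0.0009 in IKO 4. The balance of exit over entry, Slc51a over Slc10a2, differed by −0.73 on the log2 scale (IKO minus WT), which did not pass (exact permutation p = 0.122).

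Diet1 (Malrd1, ENSMUSG00000075520, chr2:15526479-16255555, plus strand) encodes a large protein that raises FGF15 output of enterocytes. It was at 60.1, 111 and 224 CPM in WT and at 63.5, 255 and 477 CPM in IKO mice, with 4 of 7 IKO mice above all WT mice. The log2 fold change was 0.93 ± 0.43 (95% confidence interval 0.03 to 1.83), which did not pass (edgeR, Benjamini-Hochberg adjusted p = 0.155). Diet1 and Fgf15 thus lay on opposite sides of 0, and their r over the 14 mice was −0.48 (permutation adjusted p = 0.281, rho = −0.42).

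Gata4 (ENSMUSG00000021944, chr14:63198922-63271692, minus strand) encodes the factor that represses Slc10a2 and other ileal genes in the jejunum. Its means were the same, 51.9 ± 32.5 CPM in WT and 51.9 ± 11.4 CPM in IKO mice (SD, n = 7 each), but not its spread. WT mice ran from 14.7 (WT 7) and 19.2 (WT 1) through a median of 38.2 to 89.4 (WT 6) and 90.4 CPM (WT 5), a 6.17-fold range. IKO mice ran from 38.1 through 49.2 to 67.9 CPM, a 1.78-fold range within that of WT. On the log2 scale the SD was 1.06 in WT and 0.32 in IKO mice, above that of 86.3% and 25.4% of the genes tested. The log2 fold change was −0.00032 ± 0.36, with an interval from −0.76 to 0.76 (edgeR, Benjamini-Hochberg adjusted p = 1.00), and its sign turned with the method, to 0.26 with limma on log2(FPKM + 1).

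**Figure D3:**
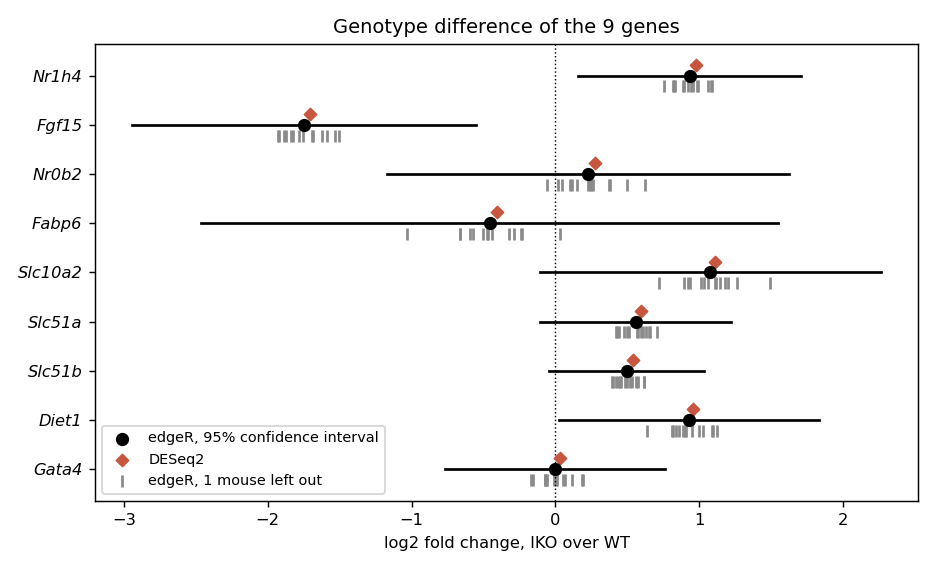
Log2 fold change of IKO over WT mice (x axis) for each gene, from edgeR with its 95% confidence interval (black), from DESeq2 (red diamonds) and from edgeR with each mouse left out in turn (grey ticks). The intervals of Nr1h4, Fgf15 and Diet1 leave out 0, before adjustment over all genes.

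Per length, in FPKM, Fabp6 was far above the other members at 5702 ± 5484 in WT mice (mean ± SD, n = 7). It was followed by Slc51b (237 ± 76.6), Slc51a (192 ± 53.0), Slc10a2 (53.4 ± 42.7), Nr1h4 (27.9 ± 10.6), Fgf15 (24.3 ± 16.5), Diet1 (18.02 ± 9.19), Gata4 (13.04 ± 8.27) and Nr0b2 (0.989 ± 0.930). Several neighbours in this order were not apart beyond their spread. Slc51b exceeded Slc51a in 5 of 7 WT mice, Nr1h4 exceeded Fgf15 in 4 of 7, and Fgf15 exceeded Diet1 in 4 of 7. In IKO mice the order from Nr1h4 to Diet1 was another: Nr1h4 (55.0 ± 28.3 FPKM) exceeded Fgf15 (7.43 ± 3.87 FPKM) in 7 of 7 mice, and Fgf15 exceeded Diet1 (35.1 ± 21.01 FPKM) in 0 of 7.

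Across the 14 mice, 2 of the 36 pairs of members varied together at an adjusted p below 0.05 by both Pearson and Spearman correlation of log2 CPM (100000 permutations, Benjamini-Hochberg over the 36 pairs). The first was Nr1h4 with Slc51b, the receptor with an exporter subunit (r = 0.85, permutation adjusted p = 0.00432, rho = 0.84, adjusted p = 0.00756). Its r was 0.70 in WT, 0.91 in IKO mice and 0.78 without the 2 mice farthest from the Nr1h4 median, WT 6 and IKO 6. The second was Slc10a2 with Slc51a, entry with exit (r = 0.83, permutation adjusted p = 0.00594, rho = 0.84, adjusted p = 0.00756). Its r was 0.79 in WT, 0.90 in IKO mice and 0.82 without WT 6 and IKO 6.

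Between the exporter subunits Slc51a and Slc51b, r was 0.39 (permutation adjusted p = 0.416, rho = 0.38). That value rested on few libraries, being 0.72 without IKO 4 and IKO 5, the farthest from the Slc51a median, and 0.76 without IKO 4 and WT 3 (adjusted p = 0.0330). Without the latter pair of libraries, Nr1h4 also varied with Slc51a (r = 0.85, permutation adjusted p = 0.0163) and with Slc10a2 (r = 0.77, adjusted p = 0.0263), beside r = 0.82 with Slc51b. No test compared these correlations with each other. Within the IKO mice alone, Fabp6 with Slc51b passed (r = 0.98, exact permutation adjusted p = 0.0214). In WT mice that pair had r = 0.84, and over all 14 mice r = 0.70 (permutation adjusted p = 0.0624, rho = 0.55). With the genotype means removed, 4 pairs passed, the 2 above and Fabp6 with Slc51b (r = 0.91, permutation adjusted p = 0.00072) and with Nr1h4 (r = 0.87, adjusted p = 0.00504). Before that removal, Nr1h4 with Fabp6 had r = 0.66 (adjusted p = 0.0791, rho = 0.52), 0.77 in WT, 0.92 in IKO mice and 0.64 without WT 6 and IKO 6. No pair passed within WT mice. Fabp6 with Gata4 and Slc10a2 with Diet1 passed by rank only. Their rho was −0.77 and 0.78 (permutation adjusted p = 0.0166 for both), while r was −0.57 (adjusted p = 0.175) and 0.64 (adjusted p = 0.0791). Without their 2 farthest mice, r was −0.75 and 0.82.

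For Fgf15 the values within genotypes were unlike each other, a difference that was not tested. In WT mice its r was 0.63 with Nr1h4, 0.78 with Slc51b and 0.81 with Fabp6, and in IKO mice −0.09, −0.04 and 0.04. By rank the contrast was smaller for Nr1h4: rho was 0.32, 0.75 and 0.75 in WT and 0.04, 0.04 and 0.21 in IKO mice. Over all 14 mice r with Nr1h4 was −0.16 (permutation adjusted p = 0.781, rho = −0.10), and −0.22 without WT 6 and IKO 6. None of the pairs of Fgf15 passed. Gata4 was negative with Fabp6, Slc10a2 and Slc51a in WT mice (r = −0.81, −0.79 and −0.89), and in IKO mice r was −0.36, 0.20 and 0.33. In all, 24 of the 36 pairs had the same sign in both genotypes, 16 of them positive. The correlation with the share of mitochondrial counts passed for 0 of 9 members (lowest permutation adjusted p = 0.258 over the 9). Its r ran from −0.44 for Diet1 to 0.50 for Slc51b. With 14 mice, not passing does not show that there is no correlation.

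**Figure D4:**
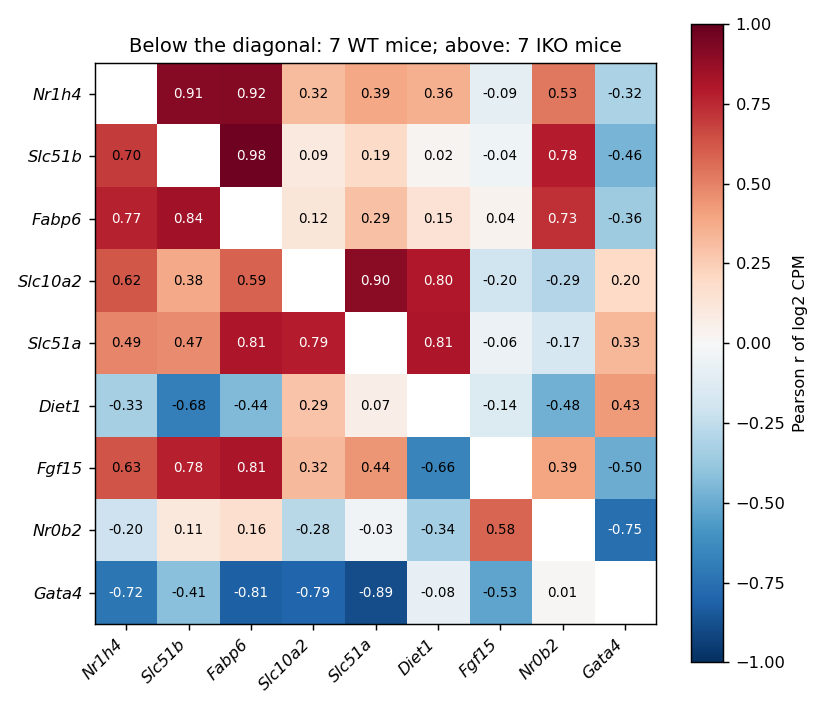
Pearson r of log2 CPM for each pair of the 9 genes, with the 7 WT mice below and the 7 IKO mice above the diagonal, red for positive and blue for negative values. Fabp6, Nr1h4 and Slc51b form a positive block on both sides of the diagonal, and Fgf15 with Nr1h4, Slc51b and Fabp6 is positive in WT and near 0 in IKO mice.

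**Figure D5:**
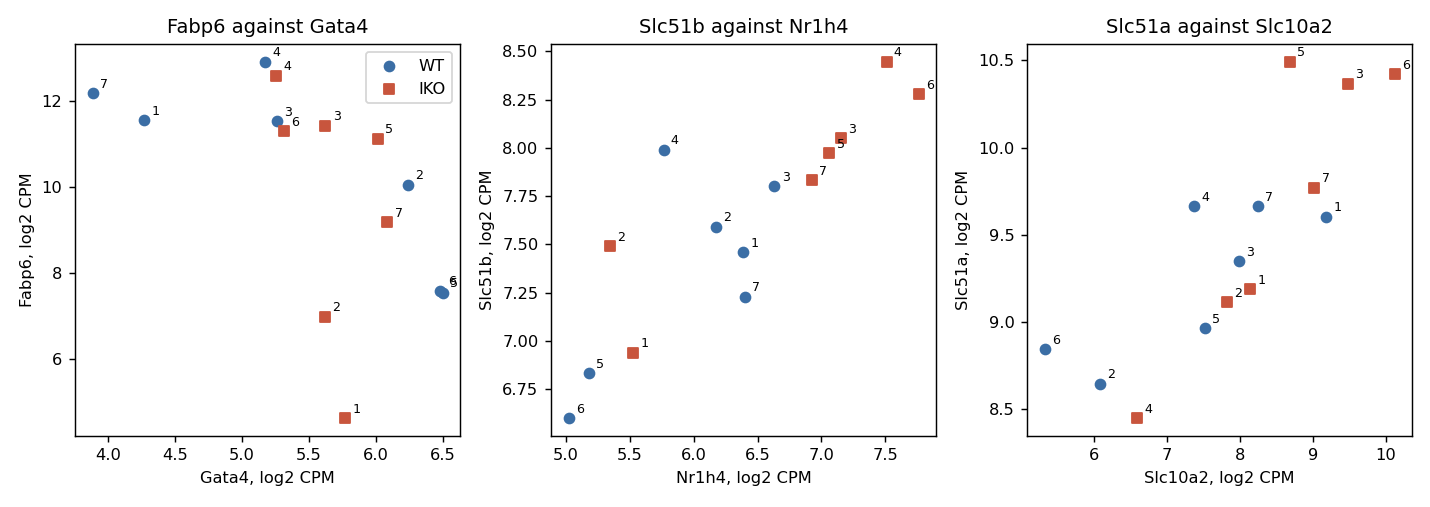
Fabp6 against Gata4, Slc51b against Nr1h4, and Slc51a against Slc10a2, all as log2 CPM, with WT mice as blue circles and IKO mice as red squares numbered by mouse. WT 5 and WT 6 combine the highest Gata4 with low Fabp6, and IKO 1 and IKO 2 have low Fabp6 at middling Gata4.

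Several of these genes are expressed mainly in the distal small intestine, so an index of distal against proximal enterocyte genes was set beside them. It was the log2 of the summed CPM of 26 genes of distal enterocytes minus that of 26 genes of proximal enterocytes. The index ran from 0.55 through 1.03 to 1.88 in WT mice and from −0.26 through 0.39 to 1.29 in IKO mice, and the difference of −0.55 did not pass (exact permutation p = 0.0857). Both of its parts had higher means in IKO mice. The log2 proximal sum differed by 0.97 (exact permutation p = 0.0286, unadjusted) and the log2 distal sum by 0.41 (p = 0.145). The index and Gata4 had r = −0.69 over 14 mice (permutation adjusted p = 0.0384 over the 9 members, rho = −0.55 with adjusted p = 0.198), −0.67 without WT 7 and IKO 2, −0.96 in WT and −0.20 in IKO mice. For Fabp6, r was 0.67 (permutation adjusted p = 0.0384, rho = 0.65 with adjusted p = 0.130), 0.59 without the same 2 mice, 0.75 in WT and 0.63 in IKO mice. No other member passed over the 14 mice. The highest r among them was that of Fgf15, 0.53 (permutation adjusted p = 0.151, rho = 0.50), with 0.395 in WT and 0.33 in IKO mice. It was 0.33 for Nr1h4, 0.35 for Slc10a2 and 0.44 for Slc51a over the 14 mice. Within genotypes the r of Nr1h4, Slc10a2 and Slc51a was higher, at 0.76, 0.80 and 0.85 in WT and 0.72, 0.64 and 0.73 in IKO mice. None of these passed (exact permutation adjusted p of 0.0875 or more). In all, r with the index was positive for 7 of 9 members in WT and 8 of 9 in IKO mice. Genes of the index were themselves called between genotypes: of the proximal list 7 were higher and 1 lower in IKO mice, and of the distal list 2 higher and 1 lower, where 8.67% of all genes tested were called.

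With a version of this index based on mean log2 CPM as a term in the edgeR fit, an alternative added after the data were seen, the genotype coefficient of Nr1h4 was 1.48 and passed (adjusted p = 0.0366). That fit called 2.09% of all genes. Slc10a2 was at 2.06 (adjusted p = 0.0564), Slc51a at 1.00 (adjusted p = 0.0777) and Fgf15 at −1.41 (adjusted p = 0.276) in it. The value of Fabp6 turned to 1.32 (adjusted p = 0.520). Whether the index stands for the position sampled or for a change in enterocytes themselves cannot be told apart.

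Other genes around the axis were counted from lists, with edgeR and Benjamini-Hochberg adjusted p throughout. Of 16 other reported intestinal FXR targets 14 were tested, with 2 higher and 1 lower in IKO mice and a median log2 fold change of −0.11 beside −0.09 over all genes. Over all genes tested, 4.38% were called higher and 4.28% lower, the background for the counts of each list here. Akr1b7, an aldo-keto reductase, rose by 2.10 ± 0.25 (adjusted p = 0.000265) and Nos2, the inducible nitric oxide synthase, by 1.69 ± 0.41 (adjusted p = 0.0222). Cers4, a ceramide synthase, fell by 1.24 on the log2 scale (adjusted p = 0.00934). The most abundant gene of the list, the apical export pump Abcc2, was at 198 ± 122 CPM in WT and 348 ± 175 CPM in IKO mice (adjusted p = 0.247).

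Of 7 other bile acid receptors 5 were tested, with a median of −0.56, and 1 was called. Vdr, the vitamin D receptor that also binds lithocholic acid, was 274 ± 56.8 CPM in WT and 527 ± 65.2 CPM in IKO mice, without overlap, and its log2 fold change was 0.94 ± 0.17 (edgeR, adjusted p = 0.00549). Gpbar1, the membrane bile acid receptor TGR5, had too few counts to be tested.

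Of 22 regulators of these promoters 20 were tested, 1 higher and 2 lower, with a median of 0.10. Ncor1 was among those lower, and Ppara, the fatty acid receptor, was higher (log2 fold change 1.55 ± 0.40, edgeR adjusted p = 0.0285). Hnf4a, the most abundant, was at 783 ± 145 CPM in WT and 1086 ± 213 CPM in IKO mice (adjusted p = 0.107). For the FXR partner Rxra the log2 difference was 0.37 ± 0.16 (edgeR, adjusted p = 0.130), and for the LRH-1 gene Nr5a2 it was −0.61 ± 0.27 (adjusted p = 0.146).

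Of the 5 receptor genes for FGF15, 4 were tested, with a median of −1.01. Fgfr3 was called lower (−1.34 ± 0.28, edgeR adjusted p = 0.0124), and Fgfr2, the most abundant, was at 17.9 ± 16.5 CPM in WT and 11.5 ± 5.89 CPM in IKO mice (adjusted p = 0.424). Klb, the coreceptor that FGF15 needs, had 18 counts in all libraries together.

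The bile acid synthesis list had 4 genes higher and 0 lower among the 10 tested of 20, beside 4.38% and 4.28% of all genes, with a median of 0.22. Those called encode peroxisomal proteins of side chain shortening or coenzyme A ester handling, which also act on fatty acids: Acox2 (1.59 ± 0.21, edgeR adjusted p = 0.000510), Abcd3 (1.14 ± 0.28, adjusted p = 0.0250), Acot8 (0.84 ± 0.15, adjusted p = 0.00619) and Hsd17b4 (0.79 ± 0.20, adjusted p = 0.0273). Scp2, the most abundant, was at 740 ± 251 CPM in WT and 957 ± 126 CPM in IKO mice (adjusted p = 0.255). Cyp7a1, the rate-limiting enzyme of the liver, and Akr1c6 had 0 counts in every library.

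Of 12 other membrane transporters listed around bile acids 8 were tested, with a median of 0.08. Not all of the 12 carry bile acids themselves, Atp8b1 among these. Abcg2, an apical efflux pump, was higher (1.65 ± 0.32, edgeR adjusted p = 0.00902) and Slco2b1, an uptake carrier, was lower (−1.003 ± 0.20, adjusted p = 0.00985). Atp8b1, the most abundant, was at 400.5 ± 176 CPM in WT and 449 ± 223 CPM in IKO mice (adjusted p = 0.806). The liver carriers Slc10a1 and Abcb11 had 40 and 14 counts in all libraries together.

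The genes that varied most like each member were taken over the 14 mice after the genotype means were removed, by Pearson r, as a description without a test. Card9, a signalling adaptor, was the nearest to both Fabp6 (r = 0.92) and Slc51b (r = 0.89) and the third for Nr1h4 (r = 0.88), at 7.24 CPM in WT and 5.26 CPM in IKO mice. Fabp6 was also near Cep78 (r = 0.87) and Fam43a (r = 0.86), and Slc51b near Ttc36 (r = 0.85) and Nudt4 (r = 0.83). Nr1h4 was nearest to Gm28557 and Gsdme (r = 0.88 for both).

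Slc10a2 was near Slc13a1, a sulphate carrier on the distal list (r = 0.85), and Lrp8 (r = 0.84). Slc51a was nearest to Elovl5 (r = 0.92), Endod1 (r = 0.91) and Rnf145 (r = 0.88). Fgf15 was nearest to the Notch ligand gene Jag2 (r = 0.90), followed by Gm9817 (r = 0.88) and Evi5l (r = 0.85). Jag2 fell by 1.80 on the log2 scale (edgeR, Benjamini-Hochberg adjusted p = 0.00803). Nr0b2 was nearest to Ankrd24 (r = 0.91), Camk2n2 (r = 0.89) and Slc25a47 (r = 0.87), all at mean levels of 1.05 to 2.72 CPM. Diet1 was nearest to Ext1, Prr14l and Smpdl3a (r = 0.97 for each), and Ext1 rose by 1.11 (edgeR, Benjamini-Hochberg adjusted p = 0.0226). Gata4 was nearest to Spns2, Homer2 and Sec31a (r = 0.95 for each). Within WT mice these r were 0.97, 0.996 and 0.97. Within IKO mice, where Gata4 varied less, they were 0.82, 0.53 and 0.76.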

How the data were processed

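RNA-seq of ileum mucosa from 7 WT and 7 IKO mice was analysed. The authors aligned paired-end reads with HISAT2 2.0.5 to mm10 and counted them per gene with featureCounts 1.5.0-p3, per the labels. They deposited raw gene counts and FPKM values. The authors' FPKM equalled counts per kilobase divided by 1 constant per sample. Strand use in counting is not given in the sources used here. Columns named KO are the IKO samples.

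Counts were normalised by TMM and filtered by filterByExpr, and genotypes were compared with the quasi-likelihood test of edgeR 4.0.16 in R 4.3.3, adjusted by Benjamini-Hochberg over 13846 genes. Alternatives were DESeq2 1.42.0, limma 3.58.1 on log2(FPKM + 1) with FPKM above 0.5 in at least 7 samples or unfiltered, a pseudocount of 0.1, other factors and filters, a replicate block and samples left out. Log2 CPM used a prior count of 2. Single values were compared by exact permutation over 3432 divisions, and correlations by 100000 permutations (exact within a genotype). On simulated counts for this comparison, the edgeR step called 109 of 199 changed genes and 3 others among 13673. The changed genes were picked at random and given changes of set sizes, so the share recovered is not that for the members.

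The members and lists were chosen with earlier results of these data known. Named are all members, the genes called and the most abundant gene of each pathway list, and the 3 genes nearest to each member. A few items that this rule names are not reported here. Rxra, Nr5a2, Gpbar1, Klb, Slc10a1 and Abcb11 were named after their values were seen. Totals of 14749669 to 21557468 counts lay behind these values, with the fewest counts for Nr0b2. Intervals cover this spread. Same-numbered WT and IKO samples did not deviate together.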

Additional observations from a re-analysis of the deposited data

Results flagged for a closer look

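Among the 9 members, the 5 ratios and the enterocyte index, 15 measures in 2 genotypes gave 30 groups of 7 mice, of which about 1.5 would be expected by chance to have a mouse set apart by a wide gap, and 2 did. The first was Fgf15 in IKO 7, at a log2 CPM of 0.69, where the gap to the next IKO mouse was 0.766 of the whole range of the group. The other Fgf15 values of the IKO mice lay between 17.5 and 36.5 CPM. The second was the log2 ratio of Slc51b over Slc51a in IKO 4, where the gap was 0.643 of the range. IKO 4 was also the library with 50.3% of its counts on mitochondrial genes, whose part in the ratio was not tested. Without IKO 4 the genotype difference of that ratio was −0.24 in place of 0.06.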

How the results depend on the processing

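The number of genes called, 1200 by edgeR, was 2571 with DESeq2, 508 without a filter, 614 with unfiltered limma, 648 without IKO 4 and WT 3, and 289 with the enterocyte index as a term. With the sample number as a replicate block it was 362, and no member was called. No sign of pairing by number was seen: same-numbered deviations had r from −0.31 to 0.23, and 1 of 7 pairs was above 0.1. Such values do not show that same-numbered mice were unrelated. Leaving out 1 mouse gave 515 to 1371, and fell by over 1.5 times without WT 4 (746), WT 7 (600), IKO 1 (526), IKO 2 (728), IKO 5 (515) or IKO 7 (789). The members called, 0, were 1 with DESeq2 (Fgf15, −1.71), with at least 10 counts in every sample (Fgf15, −1.82), without WT 6 (Fgf15) and with the index (Nr1h4, 1.48), and 0 to 1 with 1 mouse left out. Fgf15 then ran from −1.93 to −1.51, Nr0b2 from −0.055 to 0.62, Fabp6 from −1.03 to 0.034 and Gata4 from −0.17 to 0.19. Nr0b2 was −0.27 without IKO 4 and WT 3 and could not be fitted at 10 counts in every sample. Fabp6 was 1.32 with the index. Gata4, at −0.00032, was 0.032 with DESeq2, 0.027 with RLE factors, 0.025 without a filter, 0.0072 without mitochondrial genes, 0.26, 0.30 and 0.26 with limma (pseudocounts of 1 and 0.1, and unfiltered), 0.24 with the block and 0.0011 without IKO 4 and WT 3. Correlated pairs, 2, were 4 with genotype means removed, 7 without the farthest mice and 5 without IKO 4 and WT 3, and r of Nr1h4 and Fgf15 turned to 0.16 with genotype means removed. Slc51b over Slc51a was −0.19 without IKO 4 and WT 3 and −0.24 to 0.20 with 1 mouse left out. Slc51a over Slc10a2 was −0.97 to −0.45, passing without WT 1 alone (exact permutation p = 0.0297). The index difference was −0.91 from FPKM (exact permutation p = 0.0396) and −0.68 to −0.42 with 1 mouse left out, passing without IKO 3 (exact permutation p = 0.0414). Fgf15 over Nr1h4 passed under all 16 alternatives. The cause of these moves was not tested. The index as a term and its mean-based form were added after the data were seen. The spread between 7 mice limits Fabp6, and Nr0b2 has both few counts and a wide spread.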
